A study of Homo sapiens with 24 samples.

Results

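The genes described here are the replication-dependent histone genes, which encode the histones that package newly made DNA. They were taken as the protein-coding genes of the count table whose symbols start with HIST1H, HIST2H, HIST3H or HIST4H and whose counts summed to at least 20 over the 24 libraries. Of 58735 genes in the table, 19951 are protein-coding, 71 belong to this family and 55 met the limit. The genes were thus chosen by their total counts, which are given as a description. HIST1H3E (20 counts) and HIST1H3A (22 counts) lay just inside the limit, and HIST1H4B (19 counts), HIST2H4A and HIST1H4L (17 counts each) just outside it. Another 9 genes of the family had 0 counts.

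Replication-dependent histone genes lie in clusters and are transcribed mainly while DNA is copied. Most of their messenger RNAs end in a conserved stem-loop in place of a poly(A) tail. The stem-loop is bound by SLBP, which directs the processing of these messages together with the U7 small nuclear ribonucleoprotein. SLBP also takes part in their translation and decay. Some of these genes also give polyadenylated transcripts that run past the stem-loop, in particular in cells that differentiate or leave the cycle. The libraries were made from polyA-selected RNA, so the values below are taken as those of polyadenylated histone RNA. Stem-loop ended RNA carried through the selection could not be told apart from it, and the level of that form was not measured.

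The libraries are labelled MOLM-13 and THP-1, established lines of acute myeloid leukemia with a fusion of KMT2A and MLLT3, also called MLL-AF9. Cells under each label received vehicle (PBS with DMSO), LAA (L-ascorbic acid or vitamin C, which TET dioxygenases use as a cofactor) at 250 µM, olaparib (which inhibits PARP1 and PARP2, enzymes of DNA repair) at 1 µM, or both compounds (the combination), each for 72 h. Each of the 8 groups of line and treatment had 3 libraries. Nothing in the labels tells whether replicates came from separate cultures. The p-values therefore measure the spread between these samples, which may be technical.

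Total counts per library were 18666259 to 25265870. Markers of myeloid leukemia cells summed to 1213 to 1549 CPM (counts relative to library totals adjusted with TMM). Those of T and NK cells summed to 4.62 to 23.4 CPM, of B cells to 13.1 to 21.9, of erythroid cells and megakaryocytes to 0.41 to 2.11 and of epithelial cells and fibroblasts to 5.87 to 11.5, and HBB, PF4, BLK and DCN were at 0 counts in every library. With the combination against vehicle, 1 of 2 tested T and NK cell markers was lower in each line, NKG7 in MOLM-13 (log2 fold change -0.83 ± 0.18, edgeR adjusted p = 0.00525) and TRAC in THP-1 (-1.30 ± 0.44, edgeR adjusted p = 0.0278). In THP-1 1 of 4 tested B cell markers, PAX5, was higher (1.09 ± 0.18, edgeR adjusted p = 3e-05), and the B cell markers summed to 13.1 to 13.8 CPM with vehicle and 18.6 to 21.9 with the combination. Of 4 tested epithelial and fibroblast markers in THP-1, KRT8 was higher and CDH1 lower. Of 10 tested myeloid markers in MOLM-13, 1 was higher and 2 lower with the combination than with vehicle (edgeR adjusted p under 0.05). In THP-1 it was 1 higher and 3 lower of 9. With the combination 12.2% and 27.1% of all genes differed in either direction. With LAA alone 3 of 10 were lower in MOLM-13 and 1 of 9 higher in THP-1, against 1.88% and 1.49% of all genes. With olaparib alone 0 of 10 differed and 1 of 9 was higher, against 0.00619% and 0.269%. The part of these markers in the histone results was not tested. Vehicle libraries of the 2 lines differed at 765 of 17089 genes tested, 4.48% (425 higher and 340 lower in THP-1). The summed level of 15 genes nearly silent in THP-1, which an earlier look at these data had picked, was 30.8 to 32.6 CPM in MOLM-13 vehicle, 4.80 to 5.79 with LAA, 17.7 to 20.1 with olaparib and 3.20 to 5.23 with both, against 0.094 to 0.672 CPM over all THP-1 libraries. These values leave the line labels in doubt, and they do not show that the libraries under the 2 labels come from separate lines. Below, MOLM-13 and THP-1 stand for the libraries so labelled, and a line for the libraries under 1 label. Whether these differences bear on the histone values was not tested. Mitochondrially encoded genes took 6.67 to 6.74% of counts in MOLM-13 vehicle, 8.22 to 11.02% with olaparib and 8.73 to 9.31% with the combination. In THP-1 they took 6.81 to 7.49% with vehicle, 6.63 to 7.12% with olaparib and 7.77 to 9.47% with the combination. The share was thus higher with the combination than with vehicle under both labels, and in MOLM-13 it was as high with olaparib, and its part in the results was not tested. In bulk RNA, fewer cells of a type (here, cells making histone RNA) and less RNA per cell cannot be told apart.

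The stem-loop is shown because it marks the usual end of a histone message without a poly(A) tail. The count table's gene starts, ends and strands are those of GENCODE 29, as are the model lengths of the 55 histone genes. Transcripts of GENCODE 29 were searched on the sense strand for the histone stem-loop, with 6 base pairs in the stem and 4 bases in the loop. Of the 55 genes, 27 had a transcript with such a stem-loop, in 6 forms. The capitals mark the stem and the lower case the loop.
H2A, H2B and H3 genes (15, among them HIST1H2BH, HIST2H2BE, HIST2H2BF and HIST3H2A): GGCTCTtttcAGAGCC
H2B and H3 genes (5): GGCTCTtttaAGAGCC
H4 genes (3): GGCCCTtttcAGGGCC
HIST1H4I and HIST2H4B: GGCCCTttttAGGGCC
HIST1H3E: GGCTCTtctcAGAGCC
HIST1H2AG: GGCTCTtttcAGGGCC

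Of the 27 genes with a stem-loop, 20 had a transcript that ran more than 100 bases past it. In 13 of these genes a poly(A) signal (AATAAA or ATTAAA) stood in the last 40 bases of that transcript. The transcript of HIST1H2BH ran on for 1640 bases, that of HIST2H2BE for 1729, that of HIST2H2BF for 1479 and that of HIST3H2A for 390. These 20 genes held 50.22% of all counts on the family's 55 genes and the 7 with at most 100 bases after the stem-loop 4.522%. The other 28 genes, with 45.26% of the counts, have short models (median 393 bases) in which these letters were not found. A model that stops short of the stem-loop cannot show it, so these genes are not shown to lack one. HIST2H2AC, HIST1H2BK and HIST1H1C are among those 28.

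Promoters are shown for the 3 genes that were lower with the combination in both lines and for HIST1H1C, a linker histone gene without the octamer. RefSeq's promoter table (GRCh38.p14) held 46 of the 55 genes, and HIST1H3C, HIST1H3I, HIST1H4C, HIST1H2AH, HIST1H4A, HIST1H3B, HIST1H3J, HIST2H2AA4 and HIST2H2AA3 had no match. Each sequence is the 250 bases before the RefSeq start, read along the gene's strand. Capitals mark the octamer ATTTGCAT, the CCAAT box and the TATA box TATAAA on either strand, some of which overlap.
HIST1H2BH, chr6:26251364-26251613, plus strand: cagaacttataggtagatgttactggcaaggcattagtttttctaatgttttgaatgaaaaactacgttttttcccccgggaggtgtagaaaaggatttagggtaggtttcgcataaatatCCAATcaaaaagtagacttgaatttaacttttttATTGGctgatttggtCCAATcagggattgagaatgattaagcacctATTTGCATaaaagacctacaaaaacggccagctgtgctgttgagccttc
HIST1H2BK, chr6:27146856-27147105, minus strand: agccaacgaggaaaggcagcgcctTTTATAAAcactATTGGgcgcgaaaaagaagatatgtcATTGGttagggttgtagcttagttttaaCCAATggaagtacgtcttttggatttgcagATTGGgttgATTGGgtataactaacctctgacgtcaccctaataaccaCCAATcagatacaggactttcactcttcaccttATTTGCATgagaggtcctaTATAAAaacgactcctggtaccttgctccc
HIST2H2BF, chr1:149812371-149812620, minus strand: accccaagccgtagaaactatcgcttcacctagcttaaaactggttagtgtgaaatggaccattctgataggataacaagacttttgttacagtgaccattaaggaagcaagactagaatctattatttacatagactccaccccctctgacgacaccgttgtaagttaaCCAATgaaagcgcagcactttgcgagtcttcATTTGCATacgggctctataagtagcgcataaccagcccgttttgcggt
HIST1H1C, chr6:26056471-26056720, minus strand: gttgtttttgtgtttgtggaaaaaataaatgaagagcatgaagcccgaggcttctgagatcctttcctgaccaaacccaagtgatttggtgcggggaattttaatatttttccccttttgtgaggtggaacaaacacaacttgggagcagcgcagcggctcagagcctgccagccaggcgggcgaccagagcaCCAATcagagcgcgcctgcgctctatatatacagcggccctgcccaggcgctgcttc

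Over all matched genes the octamer occurred in 45.7% of these windows, against 1.63% of the 35116 windows in the table. It was found in 80.0% of the H2A and 76.5% of the H2B windows and in 0 of the 4 H1, 7 H3 and 8 H4 windows. CCAAT occurred in 87.0% of the family's windows against 32.0% of all, and TATAAA in 65.2% against 10.7%. Among the matched genes, 7 pairs of an H2A and an H2B gene start 230 to 248 bases apart on opposite strands. The windows of a pair thus overlap and share motifs. HIST2H2BE and HIST2H2AC form such a pair, as do HIST3H2A and HIST3H2BB.

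Histone RNA was scarce in every library. The 55 genes together took 758 to 1659 counts per library, or 39.2 to 71.2 CPM, and 0.005775% of all counts. By class, H2B genes (17) held 40.73% of the family's counts, H2A genes (13) 36.36%, H1 genes (4) 10.74%, H4 genes (10) 7.317% and H3 genes (11) 4.855%. By place, the cluster on chromosome 6 (43 HIST1 genes) held 62.2%, the HIST2 cluster on chromosome 1 (8 genes) 26.12% and the HIST3 cluster on chromosome 1 (3 genes) 11.3%. HIST4H4, an H4 gene alone on chromosome 12, had 112 counts in all.

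Counts were concentrated in 5 genes, which held 60.72% of them. These were the H2A genes HIST2H2AC (5074 counts, chromosome 1, 149886975 to 149887364, plus strand) and HIST3H2A (2936 counts), the H2B genes HIST1H2BH (4688 counts, chromosome 6, 26251651 to 26253710, plus strand) and HIST1H2BK (2548 counts), and the linker histone gene HIST1H1C (2412 counts). Coordinates are of build hg38 as the table gives them. Compared per length, as FPKM (fragments per kilobase of model, scaled for library size), the order was different. HIST2H2AC had a mean of 25.7 FPKM over 24 libraries, HIST1H2BK 13.2, HIST1H1C 7.42, HIST3H2A 6.45 and HIST1H2BH, with its 2060-base model, 4.49. The lowest was HIST1H3E at 0.0153 FPKM. For genes whose reads came from part of a long model, FPKM understates the level over that part. Reads past the end of a short model are not counted for the gene, so the order also depends on the models. Counts of HIST2H2AC and HIST1H2BK are less certain, since 17.2% and 28.4% of the 100-base windows in their models occur unchanged in other genes (HIST2H2AA3 and HIST2H2AA4, and H2BFS). For HIST1H2BH, HIST3H2A and HIST1H1C the share was 0%.

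**Figure D1:**
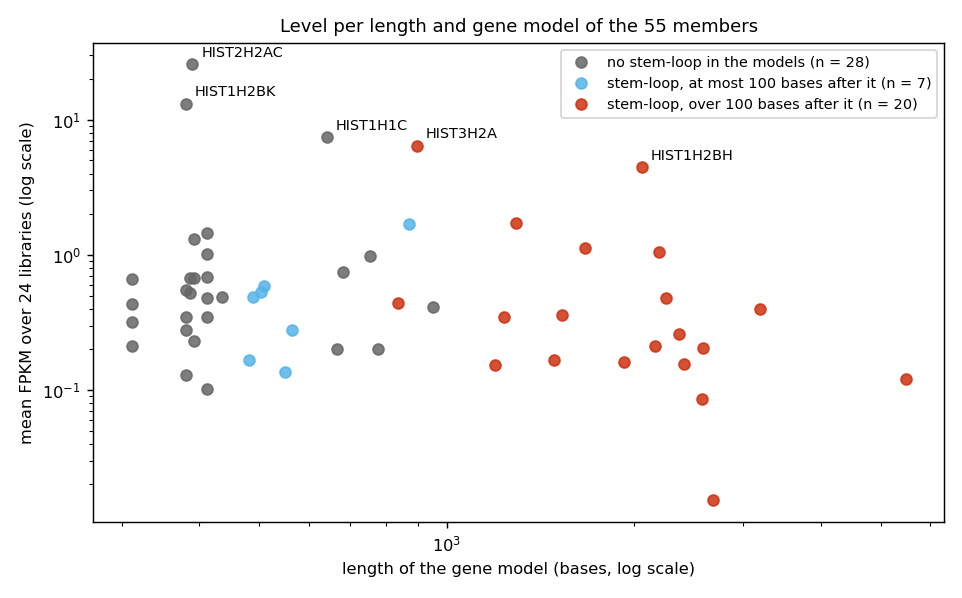
Mean level over 24 libraries (FPKM, log scale) against the length of the gene model (bases, log scale) for 55 histone genes, 1 point a gene, coloured by whether GENCODE 29 transcripts hold a stem-loop and how far they run past it. The 5 genes with most counts are labelled, and HIST2H2AC and HIST1H2BK, with short models, lie highest.

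A gene entered the tests of a line if it passed edgeR's filter on low counts, which can also be met through 1 group in which the gene is high. In MOLM-13 26 of the 55 genes passed and in THP-1 28, and 26 passed in neither line. The statements on tests below are about the genes that passed. In vehicle, none of the 32 genes tested in both lines together differed between THP-1 and MOLM-13 by edgeR's quasi-likelihood test, 0 had an unadjusted p under 0.05 (14.3% of all genes did), and DESeq2 called 0. Their median log2 difference was -0.04, against 0.00 over all genes tested. Summed over the family, vehicle libraries stood at 61.5 to 70.5 CPM in MOLM-13 and 63.0 to 71.2 CPM in THP-1.

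LAA alone changed none of the tested histone genes at an adjusted p under 0.05. In MOLM-13, edgeR called 0 of 26, where 1.88% of all 16160 genes tested were called. At an unadjusted p under 0.05 there were 0 higher and 4 lower, HIST1H2BH, HIST1H2AC, HIST1H2AG and HIST1H3C, and DESeq2 called 0. That is 4 of 26, near the 14.4% of all genes at such a p. The median log2 fold change was -0.18, against 0.00 over all genes, and 20 of the 26 were below 0. In THP-1, edgeR and DESeq2 called 0 of 28, where edgeR called 1.49% of 16331 genes. There 1 gene, HIST1H2BH, was lower at an unadjusted p under 0.05, which 12.3% of all genes had, the median was -0.20, and 17 of 28 were below 0.

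HIST1H2BH, which encodes an H2B, shows the size of these shifts. In MOLM-13 its LAA libraries held 7.16, 8.21 and 11.4 CPM and its vehicle libraries 13.7, 12.04 and 11.3 CPM. LAA replicate 3 was above vehicle replicate 3, so the groups overlapped (log2 fold change -0.46 ± 0.18, SE, edgeR adjusted p = 0.226). In THP-1 the LAA libraries held 8.57, 9.94 and 8.66 CPM and the vehicle libraries 10.2, 12.3 and 12.4 CPM. The groups did not overlap, and the difference missed the threshold (-0.36 ± 0.15, edgeR adjusted p = 0.284). In that direction 5 of the 28 tested histone genes did not overlap, against 9.69% of all genes.

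Olaparib alone likewise gave no call among histone genes. In MOLM-13, 0 of 26 were called by edgeR, against 0.00619% of all genes, with 1 gene (HIST1H4I, higher) at an unadjusted p under 0.05, where 8.38% of all genes lay, and 0 calls by DESeq2. Of the 26, 13 lay above 0 and 13 below, with a median log2 fold change of 0.00. In THP-1, 0 of 28 were called by edgeR, against 0.269% of all genes, and 0 by DESeq2. At an unadjusted p under 0.05 HIST2H4B was higher and HIST1H2BK lower, against 9.28% of all genes, the median was -0.17 and 20 of 28 were below 0. All comparisons with vehicle in a line share the same 3 vehicle libraries.

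Histone RNA was lower with the combination than with vehicle under both line labels. Summed over the 55 genes, the level in libraries labelled MOLM-13 was 39.2 to 46.1 CPM with the combination against 61.5 to 70.5 with vehicle, 63.2% of the vehicle mean. In THP-1 it was 41.0 to 55.3 CPM against 63.0 to 71.2, 69.9% of the vehicle mean. In neither line did the ranges overlap. With LAA alone the sum was 54.7 to 62.2 CPM in MOLM-13 and 57.0 to 66.5 in THP-1, and with olaparib alone 57.6 to 68.4 and 56.3 to 65.9.

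H2B genes had the lowest sums relative to vehicle. They summed to 12.8 to 18.6 CPM with the combination against 26.6 to 28.6 with vehicle in MOLM-13 (55.5% of the vehicle mean), and to 14.9 to 18.0 against 26.2 to 31.3 in THP-1 (56.1%). H2A genes stood at 71.8% of vehicle in MOLM-13, with no overlap, and at 85.9% in THP-1, where the ranges (16.8 to 23.6 and 21.3 to 23.7 CPM) overlapped. H1 genes stood at 59.2% and 64.8%, H3 genes at 62.0% and 79.8%, and H4 genes at 71.9% and 79.4%. The H1 and H3 ranges overlapped in THP-1 and not in MOLM-13, and the H4 ranges overlapped in neither. Sums are weighted to the genes with most counts, and the median log2 fold changes of the tested genes gave another order. In MOLM-13 they were -1.21 for H3 (4 genes tested), -0.90 for H1 (3), -0.55 for H2A (6), -0.54 for H2B (11) and -0.45 for H4 genes (2). In THP-1 they were -1.19 for H1 (3 genes tested), -0.86 for H2B (11), -0.24 for H2A (6), -0.14 for H3 (4) and -0.08 for H4 genes (4). The THP-1 medians of H1 and H4 include HIST1H1B and HIST2H4B, which passed the filter on low counts through groups in which they are high. Medians of so few genes give no firm order of the classes. These are descriptions of sums and medians, and the differences between classes were not tested.

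**Figure D2:**
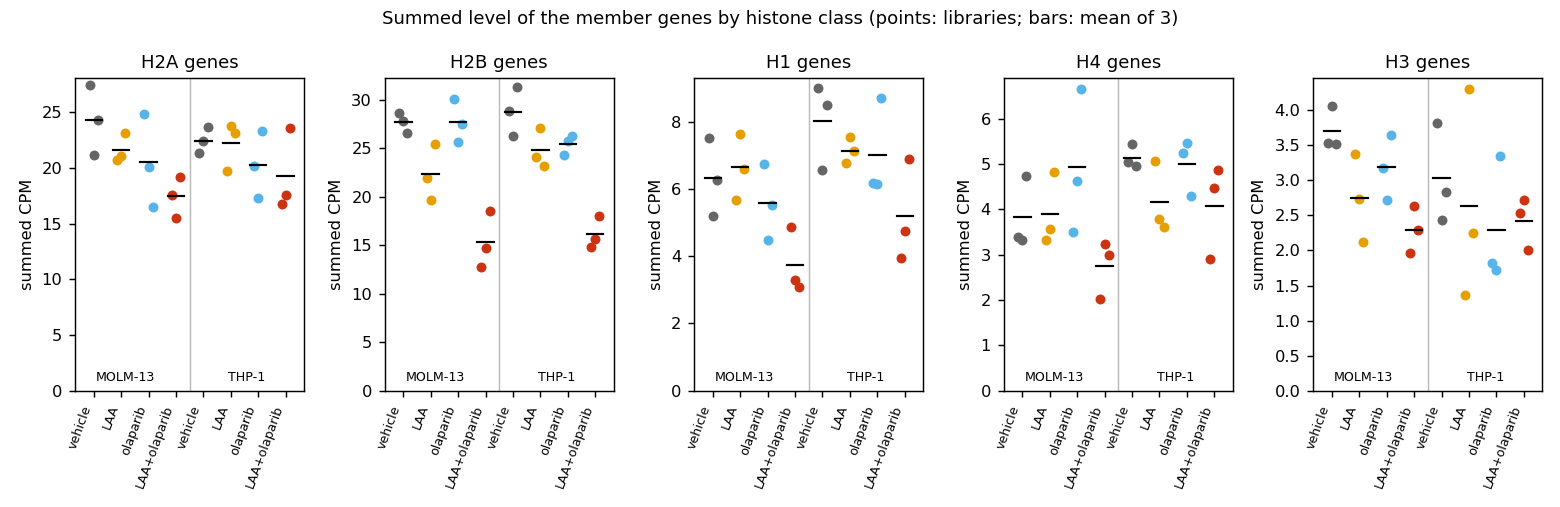
Summed level (CPM) of the histone genes of each class in 24 libraries, by line and treatment; points are libraries and bars the mean of 3. H2B sums with the combination (12.8 to 18.6 CPM in MOLM-13 and 14.9 to 18.0 in THP-1) lie below every vehicle library.

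In libraries labelled MOLM-13, 4 of the 26 tested histone genes fell with the combination and 0 rose. Over all 16160 genes, 7.35% were called lower and 12.2% in either direction. The 4 were the H2B genes HIST1H2BH, HIST1H2BK and HIST2H2BF and the H1 gene HIST1H1C. The median log2 fold change of the 26 was -0.57, against 0.00 over all genes, and 22 of the 26 were below 0, against 49.63% of all genes. Groups did not overlap for 9 of the 26, all lower with the combination, against 17.4% of all genes in that direction. At an unadjusted p under 0.05 there were 8 lower and 0 higher, against 26.1% of all genes in either direction.

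HIST1H2BH had the smallest adjusted p of the family in both lines. With the combination its MOLM-13 libraries held 5.64, 4.90 and 6.07 CPM, against 13.7, 12.04 and 11.3 CPM with vehicle. Every combination library was below every vehicle library, a log2 fold change of -1.16 ± 0.18 (2.23-fold lower, edgeR adjusted p = 0.000291). In THP-1 the combination libraries held 4.87, 5.95 and 6.72 CPM against 10.2, 12.3 and 12.4 CPM with vehicle. Again the groups did not overlap, and the fold change was -1.0003 ± 0.15 (2.0005-fold lower, edgeR adjusted p = 1.31e-05). The call held in each of the 13 other settings tried in either line, the removal of each library included.

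HIST1H2BK, a second H2B gene of the chromosome 6 cluster, moved likewise. Its MOLM-13 combination libraries held 2.80, 3.44 and 4.28 CPM and its vehicle libraries 5.50, 7.44 and 6.16 CPM. The groups did not overlap, with a log2 fold change of -0.86 ± 0.20 (edgeR adjusted p = 0.00672). In THP-1 the values were 2.39, 4.14 and 3.91 CPM with the combination and 6.34, 4.72 and 7.11 CPM with vehicle. The lowest vehicle library was above the highest combination library (-0.81 ± 0.22, edgeR adjusted p = 0.00619). The THP-1 call was lost without combination replicate 1 (-0.59, edgeR adjusted p = 0.0502).

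HIST2H2BF, an H2B gene of the HIST2 cluster, had the largest decrease among the genes called in both lines. In MOLM-13 its combination libraries held 0.466, 0.527 and 0.0995 CPM (9, 13 and 2 counts) and its vehicle libraries 1.12, 1.91 and 1.54 CPM. No combination library reached a vehicle library, with a log2 fold change of -2.02 ± 0.49 (edgeR adjusted p = 0.0102). Without combination replicate 3, the one with 2 counts, it was -1.59 (edgeR adjusted p = 0.0512). In THP-1 the combination libraries held 0.843, 0.667 and 0.529 CPM and the vehicle libraries 2.44, 1.63 and 1.29 CPM, again without overlap (-1.39 ± 0.41, edgeR adjusted p = 0.0129). Without vehicle replicate 1, the highest, it was -1.09 (edgeR adjusted p = 0.101). On the log2(FPKM + 1) scale, which understates changes of low genes, the values were -0.40 and -0.35. The gene's model overlaps FCGR1A on the opposite strand and 17.6% of its 100-base windows occur in other genes, so without strand its reads are uncertain.

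HIST1H1C, which encodes a linker histone H1, fell in MOLM-13. There the combination libraries held 3.57, 2.19 and 2.29 CPM and the vehicle libraries 5.41, 4.502 and 5.01 CPM. The groups did not overlap (-0.90 ± 0.24, edgeR adjusted p = 0.0194). Leaving out vehicle replicate 1 or 3, or combination replicate 2 or 3, ended the call (edgeR adjusted p from 0.0572 to 0.112). In THP-1 the values were 3.28, 4.24 and 5.71 CPM with the combination and 6.21, 4.98 and 6.90 CPM with vehicle, which overlapped (-0.47 ± 0.21, edgeR adjusted p = 0.103).

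**Figure D3:**
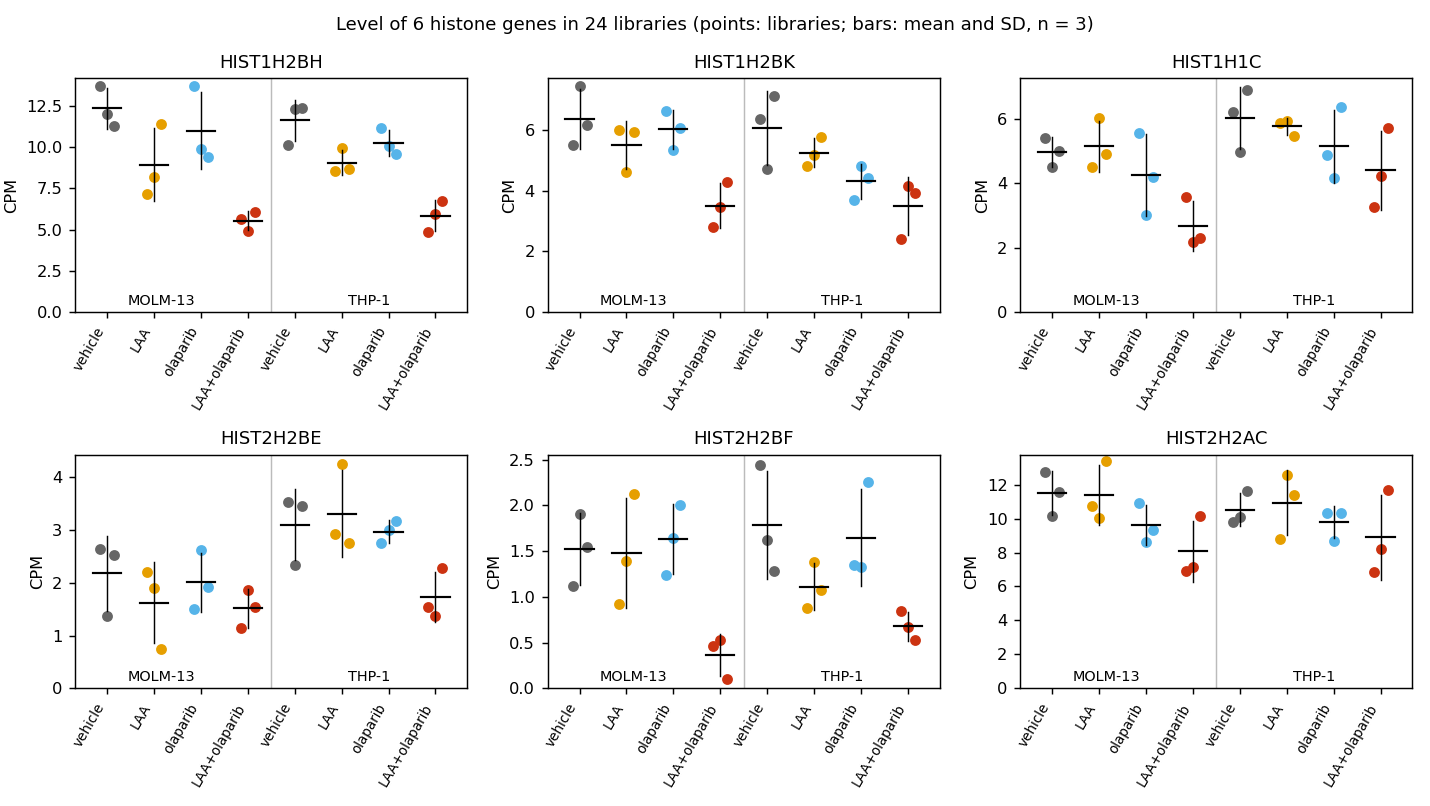
Level (CPM) of 6 histone genes in 24 libraries, by line and treatment; points are libraries, horizontal bars the mean of 3 and vertical bars the SD. For HIST1H2BH the combination libraries (4.87 to 6.72 CPM) lie below every other library, and for HIST2H2AC the combination and vehicle libraries overlap in THP-1.

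In THP-1, 6 of the 28 tested histone genes fell with the combination and 1 rose. Over all 16331 genes, 13.5% were called lower, 13.5% higher and 27.1% in either direction, so 7 of 28 called is near the share of all genes. The 6 that fell were the H2B genes HIST1H2BH, HIST1H2BK, HIST2H2BF and HIST2H2BE, the H1 gene HIST1H1B and the H4 gene HIST1H4I. The median log2 fold change of the 28 was -0.40, against -0.01 over all genes, and 24 of the 28 were below 0, against 51.35% of all genes. Groups did not overlap for 11 genes lower with the combination, against 19.5% of all genes, and for 1 higher, against 20.6%. The count of calls was 4 without vehicle replicate 1 or 3, 3 without combination replicate 1 and 9 without combination replicate 3.

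HIST2H2BE, an H2B gene whose start faces that of HIST2H2AC, held 1.55, 1.38 and 2.27 CPM with the combination and 3.53, 2.34 and 3.45 CPM with vehicle in THP-1. The groups did not overlap (-0.86 ± 0.28, edgeR adjusted p = 0.0232). Leaving out vehicle replicate 1 or 3, or combination replicate 1 or 2, ended the call (edgeR adjusted p from 0.0696 to 0.0962), as did, at 0.0606, a fit of all 24 libraries together. In MOLM-13 its combination libraries held 1.14, 1.86 and 1.54 CPM and its vehicle libraries 2.64, 1.37 and 2.53 CPM, which overlapped (-0.52 ± 0.38, edgeR adjusted p = 0.427). HIST2H2AC, the H2A partner of the pair, had -0.51 ± 0.17 in MOLM-13 (edgeR adjusted p = 0.0508) and -0.25 ± 0.17 in THP-1 (edgeR adjusted p = 0.297). Of the 7 pairs with facing starts, 5 were tested in both lines, and in these pairs HIST2H2BE in THP-1 was the one gene called. Over all genes, 12.2% were called in either direction in MOLM-13 and 27.1% in THP-1. The SE of genes in these pairs reached 0.94 (HIST1H2AE in THP-1), so a partner that was not called may still have moved. Pairs were sought only among genes with a RefSeq match, which HIST1H2AH lacked. On chromosome 6, HIST1H2AH (27147129 to 27147515, plus strand) lies beside HIST1H2BK (27146418 to 27146798, minus strand), which was called lower in both lines. HIST1H2AH itself was tested in neither line.

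HIST1H4I, an H4 gene, held 0.75, 2.14 and 1.64 CPM with the combination in THP-1 and 2.44, 3.56 and 2.83 CPM with vehicle. The groups did not overlap (-0.97 ± 0.33, edgeR adjusted p = 0.0285), and leaving out vehicle replicate 2 or 3, or combination replicate 1, ended the call (edgeR adjusted p from 0.0582 to 0.15). In MOLM-13 it held 1.29, 1.18 and 1.14 CPM with the combination against 1.97, 1.42 and 2.72 CPM with vehicle, without overlap and short of the threshold (-0.77 ± 0.37, edgeR adjusted p = 0.205).

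HIST1H1B, a linker histone gene, rested on few counts. In THP-1 it passed the filter on low counts through groups in which it is higher than with the combination. Its fold change and p there are thus no independent support. In THP-1 it had 2, 4 and 8 counts with the combination and 27, 12 and 17 with vehicle, with no overlap in CPM (-1.90 ± 0.64, edgeR adjusted p = 0.0283). Without vehicle replicate 1 or 3 or combination replicate 1 or 2 the call was lost (edgeR adjusted p from 0.0694 to 0.122), and without combination replicate 3 the log2 fold change was -2.59. In MOLM-13 it had 16, 10 and 9 counts with the combination and 13, 4 and 9 with vehicle, which overlapped (0.54 ± 0.66, edgeR adjusted p = 0.661).

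HIST2H4B, an H4 gene, was the one histone gene higher with the combination in THP-1. It passed the filter on low counts only through the olaparib and combination groups, in which it is high, so its fold change and p are no independent support. It had 12, 13 and 26 counts with the combination and 0, 1 and 4 with vehicle. With olaparib alone it had 11, 10 and 23 counts and with LAA alone 2, 6 and 5. The combination and olaparib libraries were all above the vehicle libraries (combination 3.29 ± 0.83, edgeR adjusted p = 0.00379, and olaparib 2.98 ± 0.84, edgeR adjusted p = 0.179). The combination's log2 fold change was 2.67 without vehicle replicate 1, 4.87 without vehicle replicate 3 and 1.89 on the log2(FPKM + 0.1) scale. In MOLM-13 it had 4, 1 and 19 counts with vehicle and 0, 5 and 0 with the combination and was not tested there. Because 97.1% of its 100-base windows also occur in other genes, HIST2H4A foremost, and its model overlaps HIST2H3A on the opposite strand, its counts are uncertain.

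**Figure D4:**
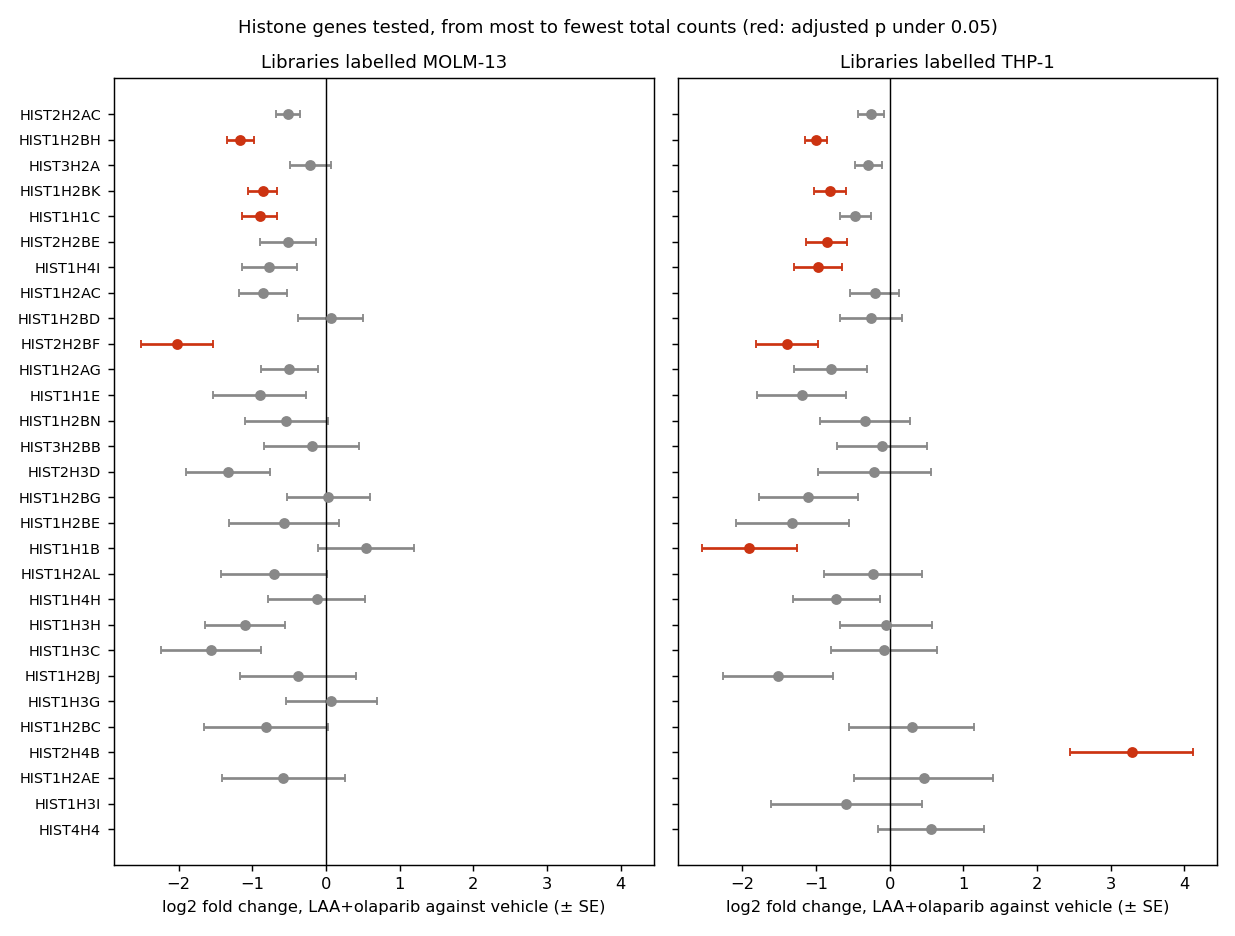
Log2 fold change of the combination against vehicle, ± SE, for the histone genes tested in each line, ordered by total counts from most to fewest; red points have an adjusted p under 0.05. Most points lie left of 0 in both lines (22 of 26 in MOLM-13 and 24 of 28 in THP-1), and HIST2H4B lies far right in THP-1.

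Of the genes lower with the combination, HIST1H2BH, HIST1H2BK and HIST2H2BF were called in both lines, which is 75% of the 4 calls in MOLM-13 and 50% of the 6 in THP-1. With the line labels in doubt, this is a count over 2 sets of libraries and not shown to be one over 2 separate lines. All 3 encode H2B, and their promoter windows hold the octamer and CCAAT shown above. These motifs do not set the 3 apart, since 13 of the 17 H2B windows hold the octamer and all 17 hold CCAAT. Among 25 genes tested in both lines, 20 were below 0 in both. The exceptions were HIST1H1B, HIST1H2AE, HIST1H2BC, HIST1H2BD and HIST1H2BG. None of the 32 genes tested over both lines differed in the combination's effect between THP-1 and MOLM-13 by edgeR, against 2.13% of all genes. By unadjusted p under 0.05, HIST2H4B was higher and HIST1H1B lower in that difference, against 15.9% of all genes, and DESeq2 called 0. The nearest to the threshold was HIST2H4B (log2 difference 5.37 ± 1.499, edgeR adjusted p = 0.0527), a gene that entered the test through the groups in which it is high. The count was 1 without MOLM-13 vehicle replicate 2, MOLM-13 combination replicate 2 or THP-1 vehicle replicate 3. For the LAA and olaparib effects edgeR and DESeq2 also called 0 line differences, against 0.14% and 0.00585% of all genes by edgeR, with 0 and 2 genes at an unadjusted p under 0.05, which 6.41% and 4.37% of all genes had.

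Genes that fell with the combination had models with and without a stem-loop. Over all genes, 7.35% were called lower in MOLM-13 and 13.5% in THP-1. Counts over so few genes do not set the groups or classes apart, and differences between them were not tested. In MOLM-13, 2 of the 9 tested genes whose models hold no stem-loop fell (HIST1H1C and HIST1H2BK, median of the 9 -0.86) and 2 of the 15 with over 100 bases after it (HIST1H2BH and HIST2H2BF, median -0.54). In THP-1, 2 of 10 whose models hold no stem-loop fell (HIST1H1B and HIST1H2BK, median -0.53). Of 16 with the longer form, 4 fell (median -0.53). In each line 2 genes with at most 100 bases after the stem-loop were tested and 0 were called. By class, H2B gave 3 of 11 calls in MOLM-13 and 4 of 11 in THP-1. H2A and H3 gave 0 of 6 and 0 of 4 in each line, with 6 of 6 and 5 of 6 H2A genes below 0.

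The combination was also compared with each compound alone. In libraries labelled MOLM-13 the combination was lower than LAA for 5 of 26 genes (8.25% of all genes were called lower and 14.9% in either direction): HIST2H2BF, HIST1H1C, HIST1H2BH, HIST1H2BK and HIST2H2AC. HIST1H2BH had -0.70 ± 0.19 (edgeR adjusted p = 0.0171), and lost its call without LAA replicate 3 (-0.48, 0.126) or combination replicate 2 (0.0969). HIST1H2BK lost its call without LAA replicate 1 or 3 or combination replicate 1 or 2 (edgeR adjusted p from 0.108 to 0.127), and at 0.0606 with total-count scaling. HIST1H1C lost it without combination replicate 2 or 3 (0.0851 and 0.0634), and HIST2H2BF without LAA replicate 3 or combination replicate 3 (0.0692 and 0.0501). HIST2H2AC, at an edgeR adjusted p of 0.0499, lost its call in 7 of 13 other settings. The count of 5 was 1 without LAA replicate 3 or combination replicate 2, and 3 without LAA replicate 1 or combination replicate 1 or 3. It was lower than olaparib for 4 of 26 (4.59% of all genes lower, 7.48% in either direction): HIST1H2BH, HIST2H2BF, HIST1H4I and HIST1H2BK. HIST1H4I held 1.89, 2.93 and 5.61 CPM with olaparib, and its call was lost without the third of these (log2 fold change from -1.54 to -1.002, edgeR adjusted p = 0.108). The HIST1H4I call was also lost without combination replicate 2 or 3 (0.0609 and 0.0603), that of HIST1H2BK without olaparib replicate 1 or combination replicate 1 or 2 (edgeR adjusted p from 0.079 to 0.104), and that of HIST2H2BF without combination replicate 3 (0.0558). Without combination replicate 2 or 3 the count of 4 was 2.

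In THP-1 the combination was lower than LAA for 2 of 28 genes (10.2% of all genes lower, 20.3% in either direction), HIST1H2BH (-0.64 ± 0.15, edgeR adjusted p = 0.00344) and HIST2H2BE (-0.94 ± 0.28, edgeR adjusted p = 0.0166). HIST2H2BE lost this call without LAA replicate 2 (0.101) or combination replicate 1 or 2 (0.0543 and 0.0718). The count was 1 without combination replicate 1 and 4 without combination replicate 3. It was lower than olaparib for 3 of 28 (11.9% of all genes lower, 24.2% in either direction), HIST1H2BH (-0.82 ± 0.15, edgeR adjusted p = 0.000203), HIST2H2BF and HIST2H2BE. HIST2H2BF lost its call without olaparib replicate 3 (-0.98, edgeR adjusted p = 0.15) or combination replicate 2 or 3 (0.0561 and 0.0793). The HIST2H2BE call held in 4 of 13 other settings, and the count was 1 without combination replicate 2. In both lines 0 genes rose in these comparisons.

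The interaction asks whether the combination's effect departed from the sum of both single effects on the log2 scale. In libraries labelled MOLM-13 edgeR and DESeq2 called 0 of 26 histone genes, against 2.04% of all genes by edgeR, with 0 higher and 3 lower at an unadjusted p under 0.05 (13.9% of all genes). These were HIST1H4I (-1.70 ± 0.51, edgeR adjusted p = 0.108), HIST2H2BF (-2.10 ± 0.65, edgeR adjusted p = 0.123) and HIST1H1C (-0.72 ± 0.34, edgeR adjusted p = 0.347). Without olaparib replicate 1 the count was 1. In THP-1 edgeR and DESeq2 called 0 of 28, against 7.57% of all genes by edgeR, with 1 higher (HIST4H4) and 3 lower at an unadjusted p under 0.05 (19.9% of all genes). HIST1H2BH had -0.53 ± 0.26 in MOLM-13 (edgeR adjusted p = 0.368) and -0.46 ± 0.21 in THP-1 (edgeR adjusted p = 0.217). Without THP-1 olaparib replicate 3 the count was 1.

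The 26 genes tested in neither line had 20 to 135 counts in all, 2012 together or 6.92% of the family's counts. Their sum was 264 counts over the 3 vehicle libraries and 212 over the 3 combination libraries in MOLM-13, and 281 and 224 in THP-1. The libraries ranged from 75 to 101 counts with vehicle and from 52 to 83 with the combination in MOLM-13, and from 71 to 135 and from 54 to 103 in THP-1. The counts overlapped under both labels, and the difference was not tested.

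Few genes that make and degrade histone messages were called. Of 30 such genes tested in each line, with the combination 1 fell and 0 rose in MOLM-13 (median 0.08), and 1 fell and 2 rose in THP-1 (median 0.00). MIF4GD, whose product binds SLBP, fell from 79.4 ± 4.5 to 59.1 ± 2.0 CPM (SD, n = 3) in MOLM-13 (-0.43 ± 0.08, edgeR adjusted p = 0.00191). In THP-1 it fell from 66.2 ± 3.0 to 55.97 ± 2.74 CPM (-0.25 ± 0.08, edgeR adjusted p = 0.0139, lost without vehicle replicate 3 or combination replicate 1 or 2, at 0.0598 to 0.0959). In THP-1 LSM10, a U7 particle subunit, had 0.28 ± 0.10 (edgeR adjusted p = 0.0347) and LSM1, a decay factor, 0.30 ± 0.09 (edgeR adjusted p = 0.0132). Leaving out vehicle replicate 1 ended both calls (edgeR adjusted p = 0.141 and 0.0925), as did leaving out combination replicate 3 (0.146 and 0.0743). For LSM10 the call was lost as well without vehicle replicate 2 or combination replicate 2 (0.101 and 0.0526).

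SLBP itself was not called in any comparison (log2 differences from -0.15 to 0.19, smallest edgeR adjusted p = 0.293). In MOLM-13 it held 163 ± 17.0 CPM with vehicle and 161 ± 3.36 with the combination, and in THP-1 149 ± 3.48 and 159 ± 4.67 CPM. NPAT, the coactivator of histone gene transcription, was called lower with the combination than with olaparib in THP-1 (-0.50 ± 0.12, edgeR adjusted p = 0.00217). Against vehicle it had -0.27 ± 0.12 in THP-1 and 0.08 ± 0.14 in MOLM-13. Its THP-1 interaction (-0.53, edgeR adjusted p = 0.049) held in 4 of 19 other settings.

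Replication-independent histone genes, whose messages are polyadenylated as a rule, were far more abundant. With the combination 4 of 11 tested fell and 0 rose in each line, with medians of -0.12 in MOLM-13 and 0.04 in THP-1. The same 4 fell in both: the linker histone genes H1F0 and H1FX, the H3.3 gene H3F3A and the H2A variant gene H2AFV. H1FX went from 212 ± 20.5 to 118 ± 12.7 CPM in MOLM-13 (-0.84 ± 0.12, edgeR adjusted p = 8.46e-05) and from 243 ± 19.5 to 160 ± 16.4 CPM in THP-1 (-0.61 ± 0.09, edgeR adjusted p = 4.45e-06). H3F3A had -0.32 ± 0.08 (edgeR adjusted p = 0.00718) and -0.56 ± 0.05 (edgeR adjusted p = 3.99e-09), the first lost without combination replicate 2 (edgeR adjusted p = 0.0557). H2AFV had -0.28 ± 0.08 and -0.33 ± 0.07, the first lost without vehicle replicate 1 or 3 or combination replicate 2 or 3 (edgeR adjusted p from 0.0783 to 0.145) and with total-count scaling (0.0614).

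H1F0, a linker histone gene known from resting and differentiated cells, was also lower with LAA alone. In MOLM-13 it held 265 ± 4.38 CPM with vehicle, 194 ± 12.9 with LAA and 151 ± 13.1 with the combination. In THP-1 it held 344 ± 10.98, 247.5 ± 8.44 and 299 ± 18.5 CPM. LAA's log2 fold changes were -0.45 ± 0.08 (edgeR adjusted p = 0.0028) and -0.48 ± 0.06 (edgeR adjusted p = 2.55e-05). The combination's were -0.81 ± 0.08 (edgeR adjusted p = 4.09e-07) and -0.21 ± 0.06 (edgeR adjusted p = 0.0138). Leaving out vehicle replicate 2 or 3, or combination replicate 1, ended the THP-1 combination call (edgeR adjusted p = 0.0641, 0.0632 and 0.121). H1FX was also called lower with LAA in THP-1 (-0.38 ± 0.09, edgeR adjusted p = 0.018) and lost that call in 7 of 13 other settings, among them those without vehicle replicate 2 or 3 or LAA replicate 1 or 3 (edgeR adjusted p from 0.111 to 0.163). Variants H2AFX, H2AFZ and H3F3B were called in no comparison.

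Genes of DNA replication were called higher more than lower with the combination. Of 40 replication and S phase genes tested, with the combination 7 rose and 0 fell in MOLM-13 (median 0.10), and 13 rose and 2 fell in THP-1 (median 0.04). For this and the other lists, 4.85% of all genes were called higher and 7.35% lower in MOLM-13, and 13.5% in each direction in THP-1. MCM7, a subunit of the replicative helicase, had 0.40 in MOLM-13 (edgeR adjusted p = 0.00152) and 0.63 in THP-1 (edgeR adjusted p = 5.26e-08). The licensing genes CDC6 and ORC1 had 0.54 and 0.51 in THP-1 (edgeR adjusted p = 7.18e-07 and 1.06e-05), and MCM10 and ORC1 0.47 each in MOLM-13 (edgeR adjusted p = 0.000934 and 0.00203).

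Histone chaperone genes were called higher more than lower with the combination, 2 against 1 of 21 in MOLM-13 (median 0.15) and 7 against 1 of 22 in THP-1 (median 0.03). NAP1L1, a carrier of H2A and H2B, fell in both (-0.40 and -0.36, edgeR adjusted p = 0.00376 and 2.04e-05). CHAF1A, a subunit of chromatin assembly factor 1, rose in THP-1 (0.39, edgeR adjusted p = 0.000103), as did NASP, which binds H3 and H4 (0.33, edgeR adjusted p = 0.000128). In MOLM-13 TONSL and HJURP were the 2 that rose (0.28 and 0.24, edgeR adjusted p = 0.0211 and 0.0347).

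Mitosis genes gave 3 higher and 0 lower of 20 in MOLM-13 (median 0.11) and 6 higher and 4 lower in THP-1 (median 0.09), with CDC20, an activator of the anaphase-promoting complex, higher in both (0.37 and 0.44, edgeR adjusted p = 0.00171 and 1.65e-06). Of 13 genes of cell cycle exit, 1 rose and 5 fell in MOLM-13 (median -0.13), and 4 rose and 6 fell in THP-1 (median -0.24). BTG2, an antiproliferative gene, fell in both (-0.91 and -0.84, edgeR adjusted p = 2.88e-06 and 9.91e-09). CDKN1A, the gene of the cyclin-dependent kinase inhibitor p21, fell from 145 ± 4.02 to 104 ± 5.81 CPM in MOLM-13 (-0.48 ± 0.07, edgeR adjusted p = 8.09e-05) and rose from 117 ± 2.66 to 170 ± 6.19 CPM in THP-1 (0.54 ± 0.06, edgeR adjusted p = 1.7e-07). Olaparib alone raised CDKN1A in THP-1 (0.39 ± 0.06, edgeR adjusted p = 0.00248).

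Monocyte and macrophage genes were called in both directions with the combination, 4 higher and 7 lower of 18 in MOLM-13 (median -0.13) and 7 higher and 6 lower of 19 in THP-1 (median 0.13). S100A9, a calcium-binding protein gene of monocytes, fell in both (-1.62 and -1.39, edgeR adjusted p = 1.67e-09 and 7.42e-14). LYZ, the lysozyme gene, rose in both (0.40 and 1.42, edgeR adjusted p = 0.00241 and 7.88e-15). Cell type markers aside, the histone genes had the lowest medians of these lists in both lines (-0.57 and -0.40), a description that was not tested. The 2 tested T and NK cell markers had lower medians (-0.93 in MOLM-13 and -0.61 in THP-1). So did the 1 tested erythroid and megakaryocyte marker in THP-1 (-1.10, against -0.43 in MOLM-13). The myeloid, B cell, and epithelial and fibroblast marker medians lay higher. In MOLM-13 the genes nearly silent in THP-1 lay lower (median of 14 tested -2.87).

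**Figure D5:**
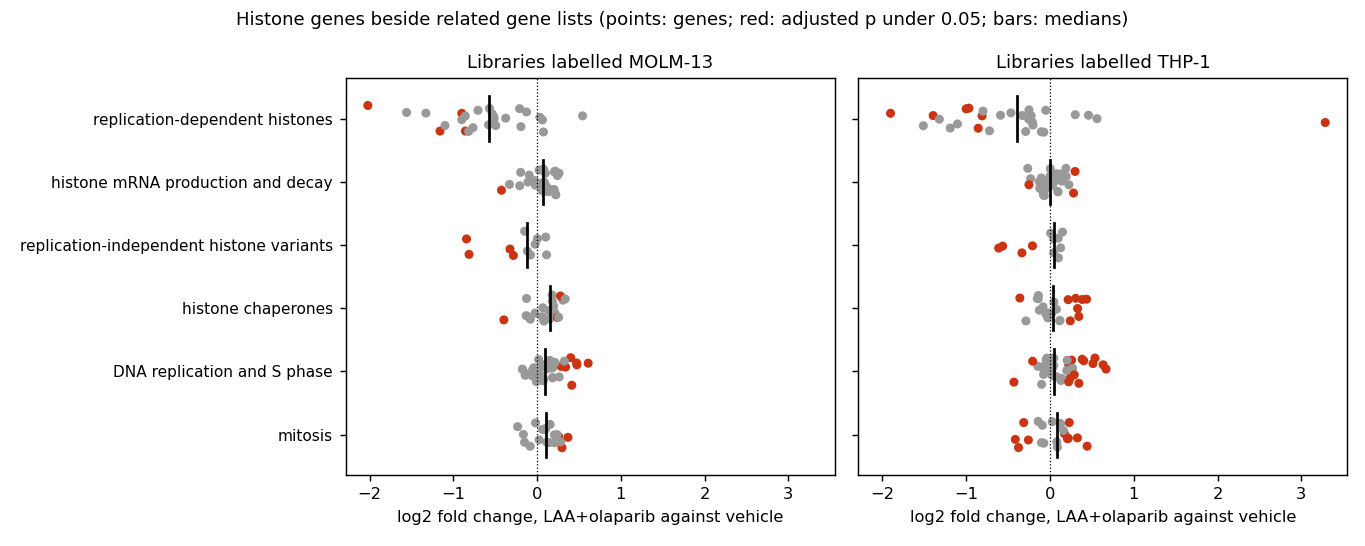
Log2 fold change of the combination against vehicle for the tested genes of the histone family and of 5 related lists in each line; points are genes (red, adjusted p under 0.05) and bars medians. The histone median lies at -0.57 in MOLM-13 and -0.40 in THP-1, and the medians of the other lists between -0.12 and 0.15.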

How the data were processed

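PolyA-selected RNA was measured in 24 libraries of 2 cell lines under 4 treatments. The kit named in the labels' protocols keeps no strand information. Per the submitters' processing notes, HISAT2, SAMtools and DESeq2 were run with build hg38, with no versions given. Counting tool and strand setting were not given in the sources used here. Whole reads without normalization make up the table of gene counts that the authors deposited, and the deposited FPKM table divides them by gene length and a size per library. Gene starts, ends and strands equal those of GENCODE 29 for all 58735 genes, as do the model lengths of the 55 histone genes. Model lengths of the other genes were not compared.

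The 12 libraries of a line were fitted together (edgeR 4.0.16, R 4.3.3, filterByExpr, TMM, quasi-likelihood F test). Line differences were tested over all 24 libraries. The Benjamini-Hochberg adjustment ran over all genes tested, and a gene was called at an adjusted p under 0.05. Total counts of 18666259 to 25265870 per library left most histone genes with few counts, which limits precision. Simulated data were used to test the fits. Alternatives were DESeq2 1.42.0, total-count scaling, no filter, log2 FPKM (pseudocounts 1 and 0.1, with limma 3.58.1), 1 fit of all libraries, a replicate block and the removal of each library.

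The genes, the lists (histone mRNA production and decay, replication-independent variants, chaperones, DNA replication and S phase, mitosis, cell cycle exit, monocyte differentiation, and cell type markers) and the tests were chosen with earlier results of these data known. Genes named are the 5 with most counts, up to 6 called per comparison with the smallest adjusted p, those nearest the count limit, the only ones of a class or cluster, up to 3 called per list against vehicle, and SLBP, NPAT, H2AFX, H2AFZ, H3F3B, H1F0 and CDKN1A. Genes beyond this, such as those at an unadjusted p under 0.05, were chosen after their values were seen. Some genes of these lists are not reported here.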

Additional observations from a re-analysis of the deposited data

Results flagged for a closer look

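The combination's effect differed between the lines for 2 genes that were looked at in every comparison beside the histone family. For H1F0 the log2 fold change in THP-1 minus that in MOLM-13 was 0.61 ± 0.10 (edgeR quasi-likelihood test of the difference, adjusted p = 0.000293), with a decrease called in both lines. For CDKN1A the difference was 1.02 ± 0.09 (edgeR adjusted p = 6.48e-09), with a decrease in MOLM-13 and an increase in THP-1. Both calls held in each of the 18 other settings tried.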

How the results depend on the processing

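With no library left out, the number of histone genes called moved by over 1.5 times in few settings. Removal of a library could move it further, as given below. With total-count scaling it was 3 for the combination against LAA in MOLM-13 (5 as reported). Without the filter on low counts it was 1 for the MOLM-13 interaction, 6 for the combination against olaparib in THP-1, and 1 each for the line difference of the olaparib and of the combination effect. With log2 FPKM and a pseudocount of 1 or 0.1 it was 4 for the combination against LAA in THP-1 and 1 for the line difference of the combination effect. The causes were not tested. Leaving out each library in turn gave 3 to 5 calls in MOLM-13 against vehicle, 1 to 5 against LAA, 2 to 5 against olaparib and 0 to 1 for the interaction. In THP-1 it gave 3 to 9, 1 to 4, 1 to 4 and 0 to 1, and 0 to 1 for the line difference of the combination effect. For the remaining comparisons it gave 0. Same-numbered libraries showed little shared deviation (median correlations from -0.02 to 0.06, with 0.166 the highest of a pair). Whether they were handled together cannot be told from these values. The replicate block gave 5, 5 and 4 calls for the combination against vehicle, LAA and olaparib in MOLM-13 and 7, 2 and 2 in THP-1. Called histone genes were followed over these settings, as were the calls of NPAT, H1F0, CDKN1A, H1FX, H3F3A, H2AFV, MIF4GD, LSM10 and LSM1. Over these, 454 values kept their call under other settings and 24 lost it, with 352 and 98 when a library was left out and 0 reversed. Calls of the other genes named from the lists, such as MCM7, NAP1L1, BTG2, S100A9 and the cell type markers, were not tried under other settings. A limit of 100 counts would leave 39 of the 55 genes. Depth limits the genes with few counts, 26 of which were tested in neither line.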
